A study of Arabidopsis thaliana with 16 samples.

Results

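The KNOTTED1-like homeobox (KNOX) genes were followed by their TAIR10 locus identifiers as 8 members among 33056 nuclear genes. Class I comprised STM (AT1G62360), KNAT1 (also called BP, AT4G08150), KNAT2 (AT1G70510) and KNAT6 (AT1G23380), and class II comprised KNAT3 (AT5G25220), KNAT4 (AT5G11060), KNAT5 (AT4G32040) and KNAT7 (AT1G62990). ChIP-seq peaks of H2A monoubiquitination (H2Aub) and H3K27 trimethylation (H3K27me3) were compared between whole Arabidopsis thaliana seedlings of the ubp5 mutant, 1 CRISPR-Cas9 deletion line in the Col-0 background, and wild-type Col-0, both at 12 days after germination on sucrose medium. H2Aub was profiled in 3 ubp5 and 3 Col-0 biological replicates, and H3K27me3 in 2 ubp5 and 2 Col-0 biological replicates. Each of the 10 libraries has its own list of broad peaks, and a peak counted when its score, 10 times the −log10 q-value of the peak caller, was over 30. UBP5 is a ubiquitin-specific protease, and peak lists do not test whether its gene is disrupted.

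KNOX proteins belong to the TALE family of homeodomain transcription factors. Class I genes keep cells of the shoot apical meristem undifferentiated, in part by raising cytokinin and lowering gibberellin, and must be silent in leaves. Class II genes are expressed broadly, in differentiating organs, and often act against class I functions. Both classes bind DNA together with BELL partners. Polycomb repressive complex PRC2 places H3K27me3 and PRC1 places H2Aub, and class I KNOX genes are textbook Polycomb targets in leaves. A whole seedling mixes meristem with differentiated organs, so a peak can come from some of its cells only.

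The lists differ in size within each genotype. The H2Aub lists held 16449, 9786 and 19014 peaks in ubp5, against 8457, 12049 and 14728 peaks in Col-0. They covered 10.9 to 27.8 Mb in ubp5 and 11.6 to 21.2 Mb in Col-0. The H3K27me3 lists held 5302 and 5565 peaks in ubp5 and 4913 and 5746 peaks in Col-0. Covered lengths were not brought to equal read depth. By the read totals the study gives, the libraries of each genotype stood in the same order of depth as of H2Aub list size, and the part of depth in the covered lengths was not tested. An absent peak does not show that a mark is absent. The smallest ubp5 list for H2Aub was that of replicate 2, and the largest Col-0 list was that of replicate 3.

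The classes differed most clearly in H3K27me3. Positions are counted from 0 at the annotated gene start, in the direction of transcription, with negative numbers before the gene. H3K27me3 peaks lay on 4 of 4 class I genes in every one of the 4 libraries, and on 1 of 4 class II genes, KNAT7. H2Aub peaks lay on KNAT3, KNAT4 and KNAT5 in all 6 libraries, and also on the class I gene KNAT6 in all 6. KNAT1, KNAT2 and KNAT7 had H2Aub peaks in some libraries only. No H2Aub peak was called on STM or within 1 kb of it in any library. The stretches printed next were chosen because the marks begin, end or meet there, or because they carry a Polycomb-related motif. They are TAIR10.1 sequence from RefSeq, which has the nuclear coordinates of TAIR10.

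In the first intron of STM and in the long intron of KNAT6 and KNAT2, all under H3K27me3 in all 4 libraries, lie copies of the telobox (AAACCCTA, searched on both strands), a motif known to recruit PRC2 in Arabidopsis through telobox-binding proteins. Capitals mark the teloboxes. STM is shown on the minus strand at chr1:23060985-23061209, KNAT6 on the minus strand at chr1:8301390-8301557 and KNAT2 on the plus strand at chr1:26577845-26577892.
STM, positions 854 to 1078: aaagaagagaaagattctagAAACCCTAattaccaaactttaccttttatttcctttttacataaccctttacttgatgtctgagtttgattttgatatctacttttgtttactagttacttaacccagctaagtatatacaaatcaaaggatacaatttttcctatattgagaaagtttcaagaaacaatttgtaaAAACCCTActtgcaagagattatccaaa
KNAT6, positions 1094 to 1261: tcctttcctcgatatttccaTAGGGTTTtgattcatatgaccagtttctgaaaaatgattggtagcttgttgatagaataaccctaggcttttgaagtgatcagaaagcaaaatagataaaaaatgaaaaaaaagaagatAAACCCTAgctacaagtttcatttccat
KNAT2, positions 1359 to 1406: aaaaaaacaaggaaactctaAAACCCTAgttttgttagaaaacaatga

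A telobox stood in the first 1500 bp of the gene in 4 of 4 class I members (3 copies in STM, 2 in KNAT6, 1 each in KNAT1 and KNAT2) and in 1 of 4 class II members (KNAT7). The KNAT7 copy, at position 248, lay under an H3K27me3 peak in Col-0 replicate 2 only. Beyond that window, class II genes KNAT5 and KNAT4 each had 1 telobox, at positions 1564 and 2055, where no H3K27me3 peak was called. The class contrast thus depends on the window, and KNAT3 alone had no telobox in the gene. Of all 19119 protein-coding genes of at least this length, 27.1% had one in that window. In the 1000 bp before the gene, KNAT1 and KNAT5 each had 1 telobox, against 12.4% of 27441 protein-coding genes. The GAGA repeat (GAGAGAGA, both strands, overlapping matches counted) stood in the first 1500 bp of KNAT1, KNAT2, KNAT6, KNAT5 and KNAT7, and 36.5% of genes had one there. In the 1000 bp before the gene it was found at KNAT6 only, against 14.8% of all coding genes. These are matches of letters and no test was made on them.

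At KNAT5 the H2Aub block began close to the first coding base. The first 300 coding bases are printed from chr4:15494127-15494426 on the plus strand, with the bases that lay under a peak in all 6 H2Aub libraries in capitals.
KNAT5, positions 138 to 437: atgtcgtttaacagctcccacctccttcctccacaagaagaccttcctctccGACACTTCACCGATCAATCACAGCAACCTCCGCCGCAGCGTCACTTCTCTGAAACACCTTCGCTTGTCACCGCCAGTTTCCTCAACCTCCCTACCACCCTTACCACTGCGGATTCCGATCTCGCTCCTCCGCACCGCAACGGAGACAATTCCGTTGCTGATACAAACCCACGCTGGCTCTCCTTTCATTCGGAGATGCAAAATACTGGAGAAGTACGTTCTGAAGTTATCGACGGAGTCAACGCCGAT

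KNAT7 carried both marks at its 3′ end, on the same short stretch, but H2Aub in some libraries only. H2Aub was called there in ubp5 replicates 1 and 3 and in Col-0 replicate 3. The 300 bases at chr1:23340039-23340338 on the plus strand lie under 3 H2Aub and 4 H3K27me3 peaks, with intron bases in lower case and coding bases of the last exon, which hold the end of the homeodomain, in capitals.
KNAT7, positions 2872 to 3171: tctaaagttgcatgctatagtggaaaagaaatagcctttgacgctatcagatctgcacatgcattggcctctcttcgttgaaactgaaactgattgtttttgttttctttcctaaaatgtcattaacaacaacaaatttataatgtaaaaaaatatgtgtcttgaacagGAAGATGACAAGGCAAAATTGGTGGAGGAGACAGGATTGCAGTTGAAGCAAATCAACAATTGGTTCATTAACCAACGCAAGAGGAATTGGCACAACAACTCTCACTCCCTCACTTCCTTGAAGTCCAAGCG

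In the long intron of KNAT2 the H3K27me3 domain of ubp5 stopped short of that of Col-0. The bases at chr1:26580138-26580337 on the plus strand show the end of the domain in ubp5 replicate 1. Capitals lie under its peak, and all 200 bases lie under the peaks of both Col-0 libraries.
KNAT2, positions 3652 to 3851: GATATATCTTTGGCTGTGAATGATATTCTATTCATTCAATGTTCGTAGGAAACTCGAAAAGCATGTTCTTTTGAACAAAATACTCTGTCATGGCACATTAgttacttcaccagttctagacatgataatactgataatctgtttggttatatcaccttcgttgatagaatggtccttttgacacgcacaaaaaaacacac

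STM, the class I gene without which no lasting shoot meristem forms, lies at chr1:23058582-23062063 on the minus strand and has 4 exons. It lay under the H3K27me3 domain with the highest fold enrichment in the family. In ubp5, peaks ran from −9558 to 3272 and from −9652 to 3276, and covered 3273 and 3277 of its 3482 bp. In Col-0, they ran from −9657 to 3266 and from −9730 to 3275, and covered 3267 and 3276 bp. The 4 peaks ended within 10 bp of each other, next to the last coding base at position 3267, and filled most of the 10158 bp that separate STM from the nearest protein-coding gene before it. The peaks were 12831 and 12929 bp long in ubp5 and 12924 and 13006 bp long in Col-0, and their fold enrichment was 4.22 and 5.08 in ubp5 and 4.63 and 6.70 in Col-0. Within their own lists these folds stood at the 96.0 to 97.5 percentile and the lengths at the 98.5 to 98.7 percentile. The covered length of STM differed by 3.5 bp on average between the genotypes (exact permutation test over 2 against 2 libraries, two-sided, p = 0.667, adjusted p = 1 over 8626 genes). AT1G62350 and the microRNA gene MIR413, both within 1 kb after STM, had no peak of either mark in any library.

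KNAT1, a class I gene of the meristem and stem that patterns internodes and pedicels, was fully covered by H3K27me3. It lies at chr4:5147699-5151159 on the minus strand, and peaks covered all 3461 bp in all 4 libraries. The domain beyond the gene differed in length. In ubp5 it ran from −2149 to 4971 and from −2185 to 4999, against −6514 to 5000 and −10803 to 6594 in Col-0. The peaks were thus 7121 and 7185 bp long in ubp5, and 11515 and 17398 bp long in Col-0. Both ubp5 peaks were shorter than both Col-0 peaks, and the difference lay mostly before the gene. Shorter peaks in ubp5 were not particular to KNAT1. Over the whole H3K27me3 lists the median peak was 1729.5 and 1719 bp long in ubp5, against 2001 and 1915 bp in Col-0. No test was planned for this length. H2Aub reached KNAT1 in 2 of 6 libraries, with 375 bp in ubp5 replicate 1 and 885 bp in Col-0 replicate 3, and both peaks had a score of 34, close to the minimum.

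KNAT2 was the only member whose covered lengths did not overlap between the genotypes. This class I gene, active in the meristem and in carpels, lies at chr1:26576486-26582879 on the plus strand and has an intron of 4162 bp. H3K27me3 covered 4057 and 3226 bp of it in ubp5, against 5545 and 5597 bp in Col-0. In Col-0 the domain crossed the long intron without a break, from −3241 to 5544 and from −3251 to 5596. In ubp5 it stopped inside the intron, at 3751 in replicate 1 and at 3225 in replicate 2. A separate peak followed in ubp5 replicate 1 at 5179 to 5483, over the exon after the intron. Positions 3752 to 5178, 1427 bp, were free of H3K27me3 peaks over the minimum score in both ubp5 libraries and under peaks in both Col-0 libraries. In ubp5 replicate 2 a peak with a score of 28, below the minimum, began at 5079. The mean covered length was 3642 ± 588 bp in ubp5 and 5571 ± 36.8 bp in Col-0 (SD, n = 2 each), a difference of −1930 bp. The exact permutation test gave p = 0.333, the smallest that 2 against 2 libraries allow, and 0.829 after Benjamini-Hochberg adjustment over 8626 genes. Covered lengths were lower in both ubp5 libraries for 28.0% of the tested genes and higher in both for 12.2%. Of the 5 members with a peak, 1 was lower and 0 were higher in both. The uncovered stretch matched nowhere else in the nuclear genome by BLAST, and its GC content of 37.5% was close to the 35.6% of the gene.

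On KNAT2, H2Aub was limited to a short block at the first exon. It covered 311, 256 and 423 bp in ubp5, against 0, 283 and 379 bp in Col-0, and on the gene it lay inside the H3K27me3 domain. Positions 80 to 332 were covered in all 3 ubp5 libraries. In ubp5 replicate 3 and Col-0 replicate 3 it was the end of a longer peak that began before the gene, at −11246 and −859. The groups overlapped (exact permutation test over 3 against 3 libraries, two-sided, p = 0.5, adjusted p = 0.869 over 24832 genes). The noncoding gene AT1G70518 behind KNAT2 had 463, 0 and 490 bp of H2Aub in ubp5, against 0, 0 and 217 bp in Col-0.

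KNAT6, the closest class I relative of KNAT2 and a gene of organ boundaries, lies at chr1:8297241-8302651 on the minus strand and has an intron of 3676 bp between the same exons. Its H3K27me3 domain ended inside that intron in both genotypes. It ran from −2840 to 3204 and from −3006 to 3623 in ubp5, against −3870 to 3274 and −3933 to 3637 in Col-0. Covered length was 3205 and 3624 bp in ubp5 and 3275 and 3638 bp in Col-0, so the groups overlapped (exact permutation test, 2 against 2, p = 0.667, adjusted p = 1). The fold of these peaks stood at the 88.9 to 93.0 percentile of their lists, second to STM in the family. Between 3638 and the gene end no H3K27me3 peak was called.

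H2Aub occupied both ends of KNAT6. A block at the start, within positions 25 to 742, was called in 4 of 6 libraries and lay under H3K27me3. A block at the 3′ end was called in all 6 libraries and had positions 4821 to 5093 in common, 273 bp of which 184 bp were coding, with no H3K27me3 over them. In total H2Aub covered 1362, 273 and 1567 bp in ubp5, against 928, 644 and 3063 bp in Col-0. The lowest value was that of ubp5 replicate 2 and the highest that of Col-0 replicate 3, which are the smallest and the largest list of their genotypes (exact permutation test, 3 against 3, p = 0.8, adjusted p = 1). MENG, a methyltransferase gene of phylloquinone synthesis that starts 299 bp after KNAT6, had 743, 567 and 724 bp of H2Aub in ubp5, against 0, 0 and 375 bp in Col-0. These groups did not overlap (exact permutation p = 0.1, the smallest that 3 against 3 libraries allow, adjusted p = 0.501). In ubp5 replicates 1 and 3 and in Col-0 replicate 3, a single peak spanned the end of KNAT6 and part of MENG. The long noncoding gene AT1G05797 before KNAT6 lay fully under H3K27me3, 218 bp in all 4 libraries.

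**Figure D1:**
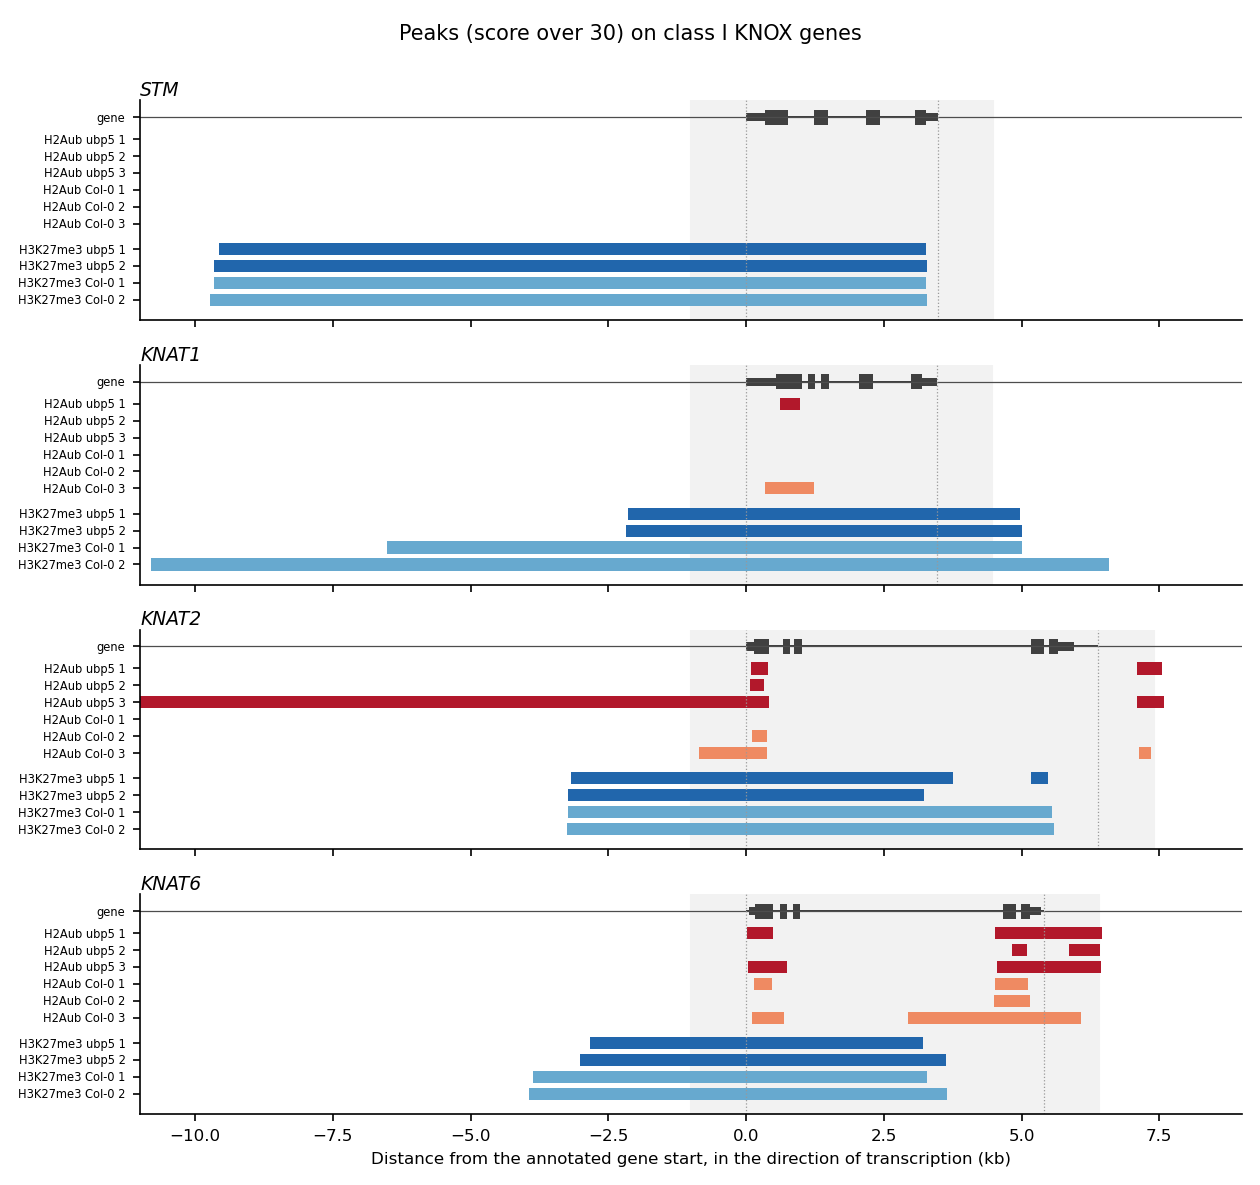
Peaks with a score over 30 that reach a class I gene or 1 kb around it, drawn by library (ubp5 above Col-0 within each mark, replicate numbers at the end of the label) against distance from the gene start in kb, with thick boxes for coding exons, thinner boxes for untranslated exons, dotted lines at the gene ends and grey over the gene with 1 kb on each side. H3K27me3 peaks (blue) span all 4 gene starts and stop in the long intron of KNAT2 in ubp5 but not in Col-0, no H2Aub peak (red in ubp5, orange in Col-0) lies on STM, and the H2Aub peak of ubp5 replicate 3 before KNAT2 runs on to −11246.

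KNAT3, KNAT4 and KNAT5, close relatives that act in differentiating shoots and roots, carried H2Aub and no H3K27me3. H3K27me3 covered 0 bp of each in all 4 libraries, also within 1 kb. KNAT3 lies at chr5:8735944-8738601 on the plus strand, and H2Aub covered 1091, 1374 and 1109 of its 2658 bp in ubp5, against 1354, 535 and 2363 bp in Col-0. KNAT4 lies at chr5:3509833-3513741 on the plus strand, and H2Aub covered 1573, 1172 and 1672 of its 3909 bp in ubp5, against 1055, 1417 and 2672 bp in Col-0. KNAT5 lies at chr4:15493989-15496381 on the plus strand, and H2Aub covered 873, 1238 and 1011 of its 2393 bp in ubp5, against 760, 1290 and 2281 bp in Col-0. For all 3 genes the ubp5 values lay between the lowest and the highest Col-0 value, and the highest was always Col-0 replicate 3. The means were 1191 ± 158, 1472 ± 265 and 1041 ± 184 bp in ubp5 for KNAT3, KNAT4 and KNAT5. They were 1417 ± 916, 1715 ± 849 and 1444 ± 772 bp in Col-0 (SD, n = 3). The exact permutation tests gave p = 0.8, 0.9 and 0.6 for KNAT3, KNAT4 and KNAT5, and adjusted p of at least 0.952. Without Col-0 replicate 3, the mean differences were 247, 236 and 15.7 bp for KNAT3, KNAT4 and KNAT5, against −226, −242 and −403 bp with it, so their direction rested on that library.

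The H2Aub blocks on these 3 genes sat at the same place. They left the gene start free in all 6 libraries and began in the first exon. The bases common to all 6 libraries were positions 503 to 968 of KNAT3, 751 to 1805 of KNAT4 and 190 to 949 of KNAT5. Coding sequence made up 94.8% of that stretch in KNAT3, 49.1% in KNAT4 and 64.6% in KNAT5, and none of it was untranslated exon. Among class II genes, 0 of 4 starts were under an H2Aub peak in any library, while 30.6 to 49.9% of protein-coding genes with an H2Aub peak had their start covered. In class I, only the start of KNAT2 was covered, in ubp5 replicate 3 and in Col-0 replicate 3. H3K27me3 covered 4 of 4 class I starts in every library, against 57.0 to 65.3% of protein-coding genes with an H3K27me3 peak.

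KNAT5 had the highest H2Aub folds among the genes of the family in ubp5. The peaks on the gene had a fold of 3.40 to 3.97 in ubp5, at the 63.8 to 85.3 percentile of their lists, and 2.39 to 3.15 in Col-0, at the 47.7 to 66.4 percentile. Folds depend on the depth of each library and were not tested between genotypes. AT4G32050, which starts 138 bp after KNAT5, had 927, 853 and 893 bp of H2Aub in ubp5, against 0, 536 and 687 bp in Col-0. The groups did not overlap (exact permutation p = 0.1, adjusted p = 0.501). AT4G32030, before KNAT5, had no peak of either mark. AT5G25230, which starts 943 bp after KNAT3, had 764, 480 and 748 bp of H2Aub in ubp5, against 856, 772 and 782 bp in Col-0 (exact permutation p = 0.1, adjusted p = 0.501). It also had 0 bp of H3K27me3 in both ubp5 libraries, against 750 and 1139 bp in Col-0 (exact permutation p = 0.333, adjusted p = 0.829). Thus 3 neighbours had H2Aub lengths that did not overlap between the genotypes, 2 higher and 1 lower in ubp5, and 0 of 8 members did. Neighbour and member were not independent, since in Col-0 replicate 3 a single peak reached both at each of these 3 neighbours. Over all 24832 genes with an H2Aub peak, 15.8% were higher in every ubp5 than in every Col-0 library and 4.18% were lower.

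KNAT7, the class II gene known for its role in secondary cell walls, was the exception within its class. It lies at chr1:23337167-23340692 on the plus strand. H3K27me3 covered 416 and 1314 of its 3526 bp in ubp5, against 394 and 1874 bp in Col-0. All 4 libraries had a peak at the 3′ end with positions 2800 to 3193 in common, and Col-0 replicate 2 had a further peak from −481 to 574 with a score of 41. The groups overlapped (exact permutation test, 2 against 2, p = 1, adjusted p = 1). H2Aub covered 362, 0 and 407 bp in ubp5, against 0, 0 and 378 bp in Col-0, at positions 2802 to 3208 at most (exact permutation test, 3 against 3, p = 0.7, adjusted p = 1). The 357 bp from 2815 to 3171 were shared by all 7 peaks of both marks at the 3′ end. This stretch matched nowhere else in the nuclear genome by BLAST.

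**Figure D2:**
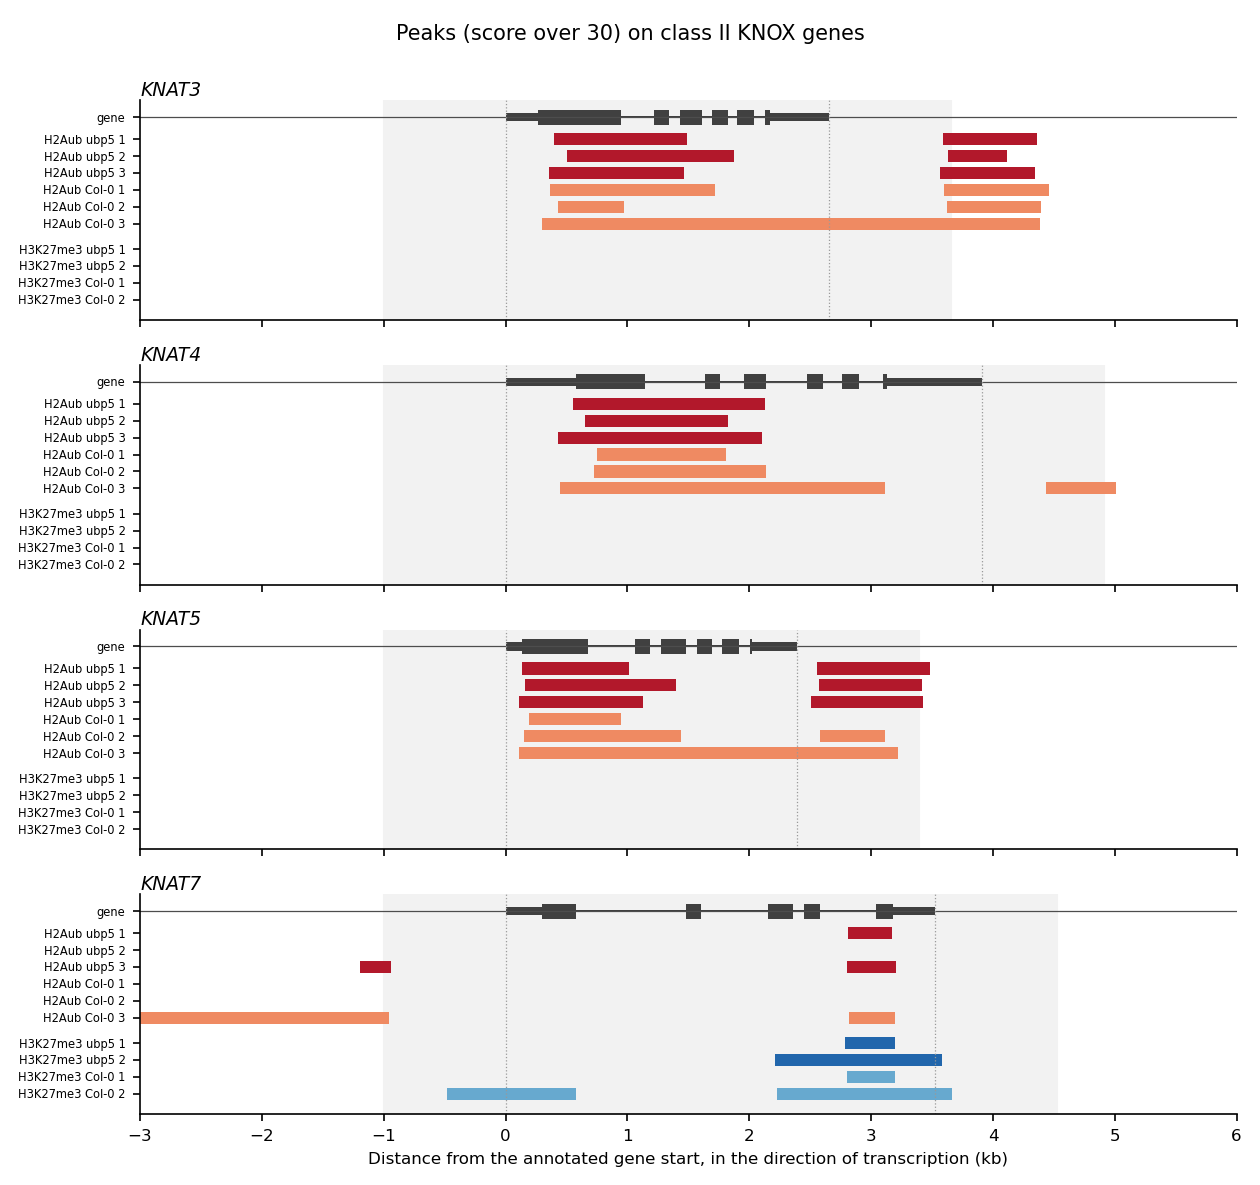
Peaks with a score over 30 that reach a class II gene or 1 kb around it, drawn by library (ubp5 above Col-0 within each mark) against distance from the gene start in kb, with symbols as for class I. KNAT3, KNAT4 and KNAT5 carry H2Aub after the gene start in all 6 libraries and no H3K27me3. At positions 2815 to 3171, KNAT7 has H3K27me3 in all 4 libraries and H2Aub in ubp5 replicates 1 and 3 and Col-0 replicate 3. The wide H2Aub peaks of Col-0 replicate 3 run past the ends of KNAT3 and KNAT5.

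Ordered by the share of the gene under H3K27me3 peaks, KNAT1 came first in both genotypes, with 100% in all libraries. STM followed with 94.1 ± 0.0812% in ubp5 and 94.0 ± 0.183% in Col-0 (SD, n = 2). In ubp5, KNAT6 (63.1 ± 5.48%) and KNAT2 (57.0 ± 9.19%) came next, and their library values overlapped. In Col-0, KNAT2 (87.1 ± 0.575%) stood above KNAT6 (63.9 ± 4.74%) without overlap. KNAT7 followed with 24.5 ± 18.0% in ubp5 and 32.2 ± 29.7% in Col-0.

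For H2Aub the order was less sharp. In ubp5, KNAT3 (44.8 ± 5.96%), KNAT5 (43.5 ± 7.70%) and KNAT4 (37.7 ± 6.77%) overlapped each other and stood above KNAT6 (19.7 ± 12.9%), with n = 3. The mean shares of KNAT7, KNAT2 and KNAT1 were 7.27, 5.16 and 3.61%, and their library values overlapped each other and the lowest of KNAT6. In Col-0 the means were 60.3 ± 32.3% for KNAT5, 53.3 ± 34.4% for KNAT3, 43.9 ± 21.7% for KNAT4 and 28.6 ± 24.4% for KNAT6, and all 4 overlapped. KNAT1, KNAT7 and KNAT2 followed with mean shares of 8.52, 3.57 and 3.45%, and STM was last with 0% in both genotypes.

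**Figure D3:**
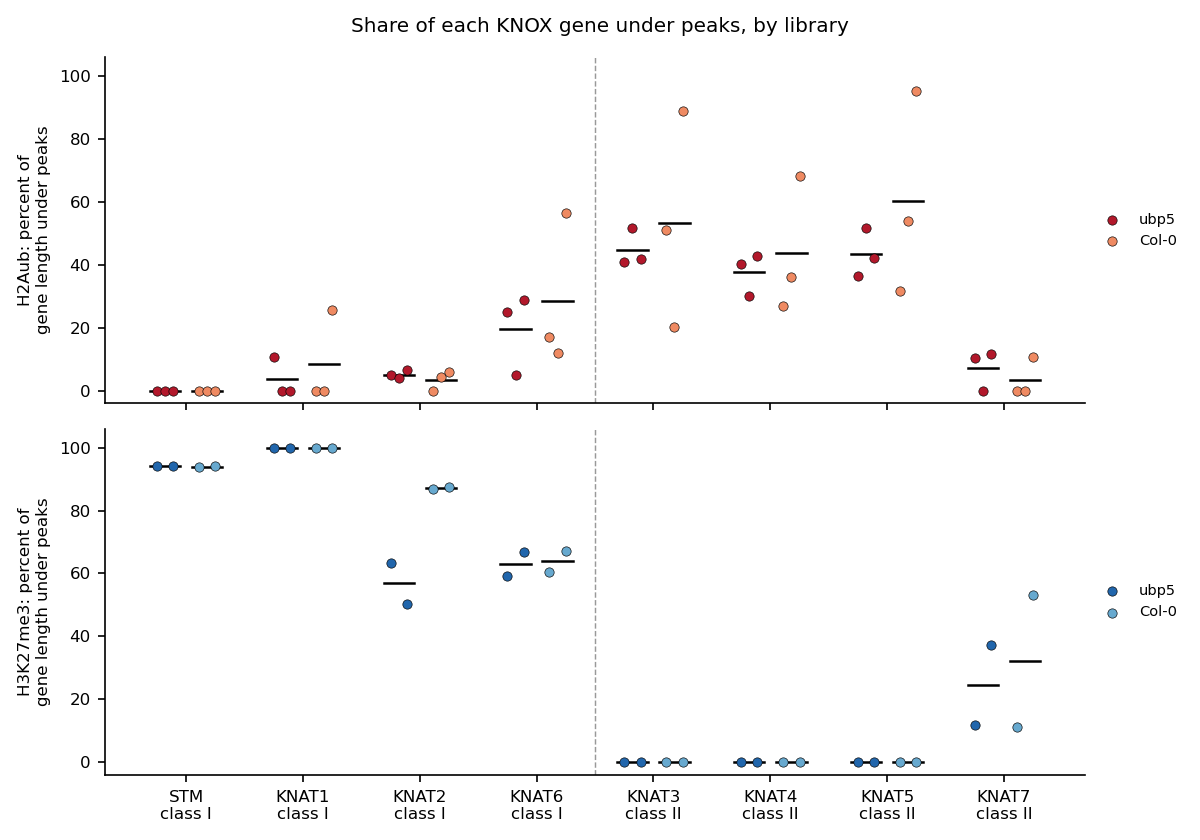
Percent of gene length under peaks for each KNOX gene (H2Aub above, H3K27me3 below), with 1 point per library, ubp5 left of Col-0, and a bar at the mean. H3K27me3 shares of KNAT2 are 50.5 and 63.5% in ubp5 and 86.7 and 87.5% in Col-0, and in H2Aub the highest Col-0 point of KNAT3, KNAT4, KNAT5 and KNAT6 is replicate 3.

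The difference between the classes held in every library. The mean share of gene length under H3K27me3 was 78.5 ± 0.908% in class I and 6.13 ± 4.50% in class II in ubp5. It was 86.2 ± 1.38% in class I and 8.04 ± 7.42% in class II in Col-0 (SD over libraries, n = 2). Class I minus class II was thus 72.4 ± 5.41 points in ubp5 and 78.2 ± 6.04 points in Col-0, and class I was higher in 4 of 4 libraries. For H2Aub the mean share was 7.12 ± 4.26% in class I and 33.3 ± 1.28% in class II in ubp5. It was 10.1 ± 10.3% in class I and 40.3 ± 22.1% in class II in Col-0 (n = 3). Class I minus class II was −26.2 ± 4.67 points in ubp5 and −30.1 ± 11.8 points in Col-0, and class I was lower in 6 of 6 libraries. These shares depend on gene length. In bp, the mean H2Aub length on KNAT6 (5411 bp) was 1067 in ubp5 and 1545 in Col-0. On the shorter KNAT5 (2393 bp) it was 1041 in ubp5 and 1444 in Col-0. Genes are not replicates of a condition, so no test was made between the classes. Over all protein-coding genes the mean share was 30.1% in ubp5 and 24.8% in Col-0 for H2Aub, and 16.2% in ubp5 and 17.3% in Col-0 for H3K27me3. Col-0 replicate 3 stood apart for H2Aub, with 65.8% in class II, against 27.4 and 27.6% in the other Col-0 libraries. In those, class I minus class II was −23.1 and −23.5 points, against −43.8 points in replicate 3.

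**Figure D4:**
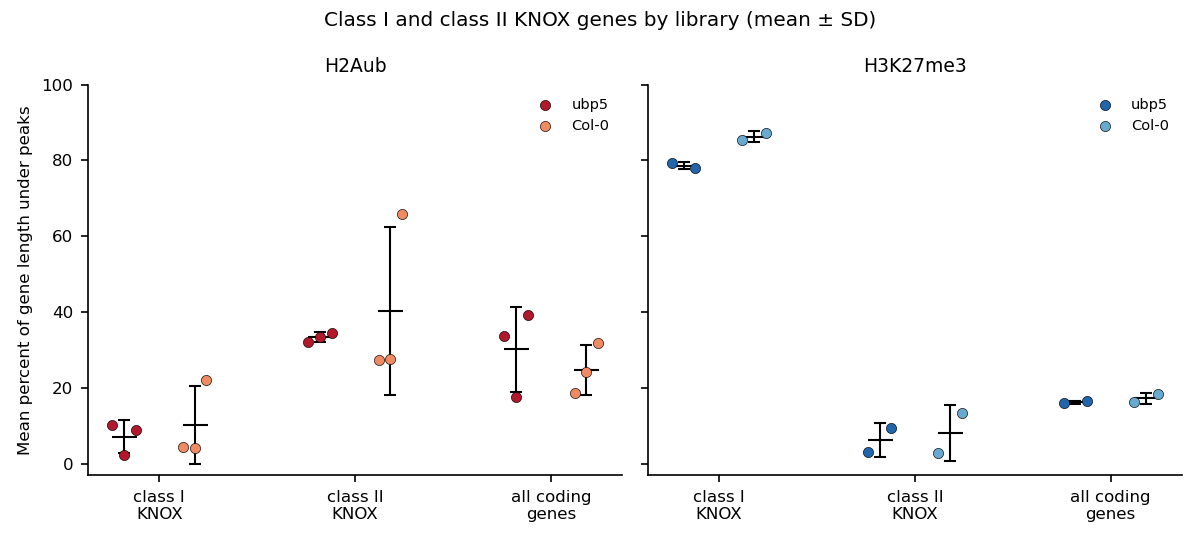
Mean percent of gene length under peaks over the 4 class I genes, the 4 class II genes and all protein-coding genes, with 1 point per library, ubp5 left of Col-0, and mean ± SD over libraries. Class I exceeds class II for H3K27me3 in 4 of 4 libraries, and class II exceeds class I for H2Aub in 6 of 6.

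A gene was called marked in a genotype when a peak overlapped it by at least 1 bp in at least 2 libraries. H2Aub marked 6 of 8 members in ubp5 and 5 of 8 in Col-0. Among all nuclear genes the shares were 62.3% in ubp5 and 42.5% in Col-0. With lists matched in covered length the order turned, with 2 members marked in ubp5 and 4 in Col-0. Class I contributed KNAT2 and KNAT6 in both genotypes, and class II contributed 4 genes in ubp5 and 3 in Col-0. KNAT7 was the member marked in ubp5 and not in Col-0, as were 22.8% of all genes, and its Col-0 replicate 3 had the same peak. H3K27me3 marked 5 of 8 members in each genotype, the class I genes and KNAT7, against 19.6% of all genes in ubp5 and 19.7% in Col-0. No member was marked by H3K27me3 in ubp5 alone, and 2.84% of all genes were.

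No covered length passed the test in the family or elsewhere. Of 24832 genes tested for H2Aub and 8626 for H3K27me3, 0 had an adjusted p below 0.05 by the exact permutation test, and the smallest adjusted p were 0.501 and 0.829. No unadjusted p could fall below 0.05 with these library numbers. At the smallest p the design allows stood 4956 genes for H2Aub and 3468 for H3K27me3. Of the 7 members with an H2Aub peak, mean covered length was higher in ubp5 for 2 and lower for 5, with a median difference of −226 bp. Without Col-0 replicate 3 it was higher in ubp5 for all 7. Over all tested genes, 66.2% were higher in ubp5 and the median difference was 127 bp. Of the 5 members with an H3K27me3 peak, 1 was higher in ubp5, 3 were lower and 1 was equal, with a median difference of −42 bp against −2.75 bp over all tested genes.

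Base pairs with both marks were few. They are counted on the gene and 1 kb on each side, under peaks of each mark in at least 2 libraries of the genotype. KNAT6 had 459 bp in ubp5 and 324 bp in Col-0, KNAT2 had 314 bp in ubp5 and 278 bp in Col-0, and KNAT7 had 362 bp in ubp5 and 0 bp in Col-0. The other members had 0 bp in both genotypes. With a score over 60 in place of 30 the sum over the 8 members was 0 bp in both genotypes.

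Related genes comprised 13 BELL partners, the homeobox-free KNOX gene KNATM, 8 regulators of KNOX expression and 4 targets. H2Aub marked 24 of these 26 in ubp5 and 20 in Col-0, and H3K27me3 marked 13 in ubp5 and 15 in Col-0. Of all nuclear genes, H2Aub marked 62.3% in ubp5 and 42.5% in Col-0, and H3K27me3 marked 19.6% in ubp5 and 19.7% in Col-0. Covered lengths lay apart, always lower in ubp5, for 2 of the 25 related genes with an H2Aub peak. The same held for 5 of the 17 with an H3K27me3 peak. Of all genes tested, 4.18% were lower in every ubp5 library for H2Aub and 28.0% for H3K27me3. Higher in every ubp5 library were 15.8% for H2Aub and 12.2% for H3K27me3. KNATM, whose protein lacks the DNA-binding homeodomain, had all 949 bp under H3K27me3 in all 4 libraries, as KNAT1 did over its length. Its H2Aub covered 824, 0 and 858 bp in ubp5, against 0 bp in all 3 Col-0 libraries, so it was marked in ubp5 only (exact permutation test, 3 against 3, p = 0.4, adjusted p = 0.741).

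Among BELL partners, 11 of 13 were marked by H2Aub in ubp5 and 9 in Col-0, beside 62.3% of all genes in ubp5 and 42.5% in Col-0. BLH5 and BLH8 were marked in ubp5 only, as were 22.8% of all genes. BLH5 had 330, 0 and 395 bp in ubp5 and 0 bp in all Col-0 libraries, and BLH8 had 175, 268 and 2341 bp in ubp5, against 0, 0 and 1962 bp in Col-0. BLH8 and BLH9, which act with class I proteins in the inflorescence meristem, lay almost or fully under H3K27me3, with 3559 bp of BLH9 in all 4 libraries. H3K27me3 marked 4 BELL partners in ubp5 and 5 in Col-0, beside 19.6% of all genes in ubp5 and 19.7% in Col-0. BLH4 was the one marked in Col-0 only, as were 978 of 33056 nuclear genes. It had 817 and 0 bp in ubp5, against 642 and 3187 bp in Col-0. BLH1 had 2092, 2483 and 2150 bp of H2Aub in ubp5, against 2966, 3248 and 3232 bp in Col-0. Its groups did not overlap (exact permutation p = 0.1, adjusted p = 0.501).

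Among regulators, 8 of 8 were marked by H2Aub in ubp5 and 7 in Col-0, and 6 of 8 by H3K27me3 in each genotype. The shares of all genes were 62.3% in ubp5 and 42.5% in Col-0 for H2Aub, and 19.6% in ubp5 and 19.7% in Col-0 for H3K27me3. AS1, a MYB factor that keeps class I genes off in leaves, was the one marked in ubp5 only, with 771, 0 and 980 bp in ubp5, against 0, 0 and 1329 bp in Col-0. AS2, its partner, lay fully under H3K27me3 in all 4 libraries, 2847 bp. BOP1, which acts at leaf bases and boundaries, also lay fully under H3K27me3, with 2681 bp in all 4 libraries. BOP2, which acts with it, had 2883 and 2708 bp in ubp5, against 2791 and 2883 bp in Col-0. CUC3, a boundary gene named after its values were seen, had 606 and 703 bp in ubp5, against 899 and 920 bp in Col-0, without overlap. Among targets, the gibberellin-degrading enzyme genes GA2OX2 and GA2OX4 had shorter H3K27me3 coverage in ubp5. GA2OX2 had 0 bp in both ubp5 libraries, against 739 and 656 bp in Col-0. It was marked in Col-0 only, as were 978 of 33056 nuclear genes. GA2OX4 had 1219 and 1270 bp in ubp5, against 2444 and 2388 bp in Col-0. Neither passed the test (exact permutation p = 0.333, adjusted p = 0.829). The targets also include the gibberellin synthesis gene GA20OX1 and the cytokinin synthesis gene IPT7. All 4 targets were marked by H2Aub in each genotype, beside 62.3% of all genes in ubp5 and 42.5% in Col-0. IPT7 lay fully under H3K27me3, 1572 bp in all 4 libraries. Its H2Aub covered 1300, 1249 and 1370 bp in ubp5, against 1572, 1407 and 1475 bp in Col-0 (exact permutation p = 0.1, adjusted p = 0.501).

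**Figure D5:**
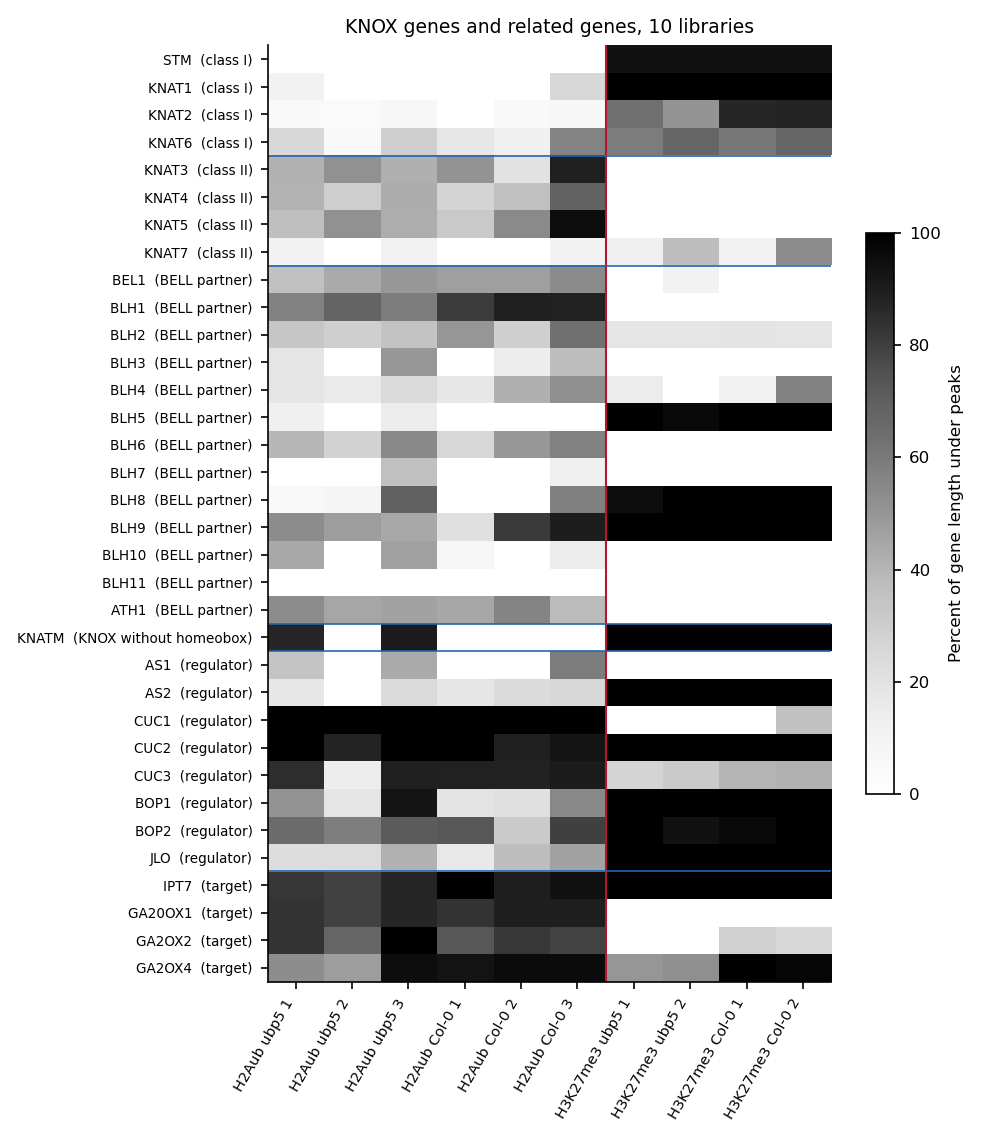
Percent of gene length under peaks (white 0, black 100) for the 8 KNOX genes and 26 related genes in 10 libraries, ubp5 left of Col-0 within each mark, with a red line between H2Aub and H3K27me3 and blue lines between gene groups. STM, KNAT1 and KNATM are dark for H3K27me3, as are related genes such as BLH5, BLH8, BLH9, AS2, BOP1, BOP2 and IPT7. KNAT6, and KNAT2 in ubp5, are paler. KNAT3, KNAT4 and KNAT5 are grey to black for H2Aub and white for H3K27me3.

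The patterns of the members were compared by the mean absolute difference of the share of gene length under peaks over the 10 libraries. Between members, STM and KNAT1 were 6.04 points apart, and KNAT3, KNAT4 and KNAT5 were 6.45 to 8.42 points apart. KNAT7 was nearest to KNAT2, at 19.8 points, and 32.5 to 39.2 points from the other class II genes. Outside the family, the protein-coding gene nearest to STM was AT3G27150 at 0.425 points, and 549 genes lay within 5 points of STM. The nearest were AT1G43005 to KNAT1 (1.31 points), VEL3 to KNAT2 (4.55 points) and AT2G18360 to KNAT6 (5.40 points). For class II they were AT5G47250 to KNAT3 (4.15 points), CPC to KNAT4 (1.43 points), HHP2 to KNAT5 (2.94 points) and PERK7 to KNAT7 (4.68 points).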

How the data were processed

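Chromatin of 12 days old seedlings was profiled in 16 samples. Of these, 10 have peaks, and 6 inputs were not used. Per the submitters' processing notes and the study's methods, the authors mapped reads to TAIR10 with STAR 2.7.8a, removed duplicates with Picard, kept uniquely mapped reads and called broad peaks with MACS3 3.0.0 in each library with an input as control. In each deposited list the score equals −log10 q times 10 without its decimals. The lists also give a fold, the deposited ratio of pileup to expected background, with −log10 p and q-value columns from the same caller, and all of these depend on depth. The deposited H2Aub lists held no −log10 q under 3.00 and the H3K27me3 lists reached about 1.01, so a score over 30 was applied to all.

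Genes were taken from RefSeq's TAIR10.1 annotation, with the coding transcript of the longest coding sequence for exons. The covered length of each gene, in bp under peaks, was compared between genotypes by an exact permutation test over libraries, two-sided, on every gene with a peak of the mark, with Benjamini-Hochberg adjustment over all of them. The smallest p is 0.1 for 3 against 3 and 0.333 for 2 against 2 libraries, so no adjusted value could pass 0.05. The number of libraries limits the precision. Functions were tested on simulated lists. The replicate numbers were treated as names, and a replicate block was an alternative. The others were no score filter, scores above 60, lists cut to the smallest covered length within the mark by −log10 q (matched covered length), a peak over 50% of the gene, 1 kb on each side, every library, and leaving out each library. Named were all members, annotated genes within 1 kb of a member, KNATM, related genes whose marked state differed between genotypes with up to 3 further examples per group by covered length, and the nearest gene in pattern for each member. CUC3 was added after its values were seen. The members and lists were chosen with earlier results of these data known. Python 3.11.15, NumPy 2.4.6, BLAST+ 2.17.0 (E-value up to 1e-05) and Matplotlib 3.10.9 were used.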

Additional observations from a re-analysis of the deposited data

Results flagged for a closer look

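On KNAT2, 1 H3K27me3 peak that the comparisons did not use was found in ubp5, because its score of 28 was below the minimum. It belongs to ubp5 replicate 2, is 417 bp long and runs from 5079 to 5495, with a fold of 1.91. It lies where ubp5 replicate 1 has a peak at 5179 to 5483. Neither Col-0 library has such a low-scoring peak there, since their H3K27me3 domains cross the whole stretch. The only other peak of this kind on a KNOX gene or within 1 kb of it was an H2Aub peak of Col-0 replicate 2 behind KNAT4, at 4414 to 4854, with a score of 30. No group had 4 or more libraries, so no library was screened as an outlier.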

How the results depend on the processing

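With all deposited peaks no count or class difference moved by more than the spread between replicates. For H2Aub this setting could change little, since each deposited list held only 89 to 313 peaks with a score of 30 or less. The class difference in H2Aub in ubp5 was −21.3 points with a score over 60, −20.5 points with matched covered length and −15.3 points with 1 kb on each side, against −26.2 points as reported. H2Aub marked 2 of 8 members in ubp5 and 4 in Col-0 with matched covered length, the opposite order to that reported, and 0 in ubp5 and 2 in Col-0 when a peak had to cover at least 50% of the gene. The sum of base pairs with both marks was 0 bp in both genotypes with a score over 60 and with matched covered length. With matched covered length 1 member, KNAT6, was lower in every ubp5 library for H2Aub, with a difference of −1259 bp (exact permutation p = 0.1). The smallest adjusted p of this test over all genes was 0.327 in that setting. How many of all genes lay apart there was not counted. Leaving out 1 library, H2Aub marked 5 to 6 members in ubp5 and 4 to 5 in Col-0. Shares of all genes marked were not computed for any of these alternatives. Causes were not tested.

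The shorter H3K27me3 coverage of KNAT2 in ubp5 kept its direction in all 9 alternatives, with differences from −2345 to −1514 bp. Both ubp5 values lay below both Col-0 values, so leaving out 1 library or using the replicate block could not reverse it. The H3K27me3 difference on KNAT7 was 18.5 bp with a score over 60 and with matched covered length, and the H2Aub difference on KNAT6 was 149 bp with 1 kb on each side, both opposite in sign to those reported. Leaving out 1 library, H2Aub differences ran from −317.5 to 125 bp for KNAT1, −1 to 188.5 bp for KNAT2, −928 to 281 bp for KNAT6, −667 to 247 bp for KNAT3, −572 to 236 bp for KNAT4 and −745 to 15.7 bp for KNAT5. The positive ends came without Col-0 replicate 3. H3K27me3 differences ran from −1 to 8 bp for STM, −251.5 to 167.5 bp for KNAT6 and −1009 to 471 bp for KNAT7.

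The replicate block allowed no p below 0.25 for H2Aub and 0.5 for H3K27me3, and 0 genes passed with it, as without it. Same-numbered libraries did not all deviate together (correlations −0.111, 0.0828 and 0.242 for H2Aub replicates 1, 2 and 3, and 0.0948 for H3K27me3). The numbers were therefore not taken as pairs, although the H2Aub value of replicate 3 was the highest of any ubp5 and Col-0 pair. With 2 or 3 libraries a group, no difference of any size could reach an adjusted p below 0.05. Read depth was not corrected for.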
